A study of Mus musculus with 4 samples.

Results

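Collagen chain genes were examined in RNA-seq libraries of primary mouse astrocytes. They were taken as all protein-coding genes of the deposited table whose name is Col, a number, the letter a and a second number, which gave 42 of the 25393 genes listed. They were grouped by the kind of assembly their proteins form into 11 fibrillar chains, 8 basement membrane chains (6 of type IV, and Col15a1 and Col18a1, the multiplexins) and 23 other chains. The cells came from cortex and hippocampus of untreated C57BL/6 pups at postnatal day 1, wild type (WT) or labelled tet1-/-, the constitutive Tet1 knockout (KO), with 2 libraries for each genotype. A library came from 2 mice, whose cells were grown for about 7 days, shaken at 260 rpm to remove loosely attached cells and collected 24 h later. Nothing in the labels says that libraries of a genotype were separate litters or days, so p-values measure the spread between these libraries, which may be partly technical.

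Collagens are secreted proteins built as trimers of alpha chains, each with stretches in which glycine opens every Gly-X-Y repeat. Fibrillar chains pack into the cable-like fibrils of connective tissue, type IV chains form the sheet-like network of basement membranes, and the other chains coat fibrils, make beaded filaments or hexagonal nets, or span the cell membrane. In brain, the basement membrane around vessels and under the meninges, on which astrocyte end-feet rest, is rich in type IV collagen, whereas fibrillar collagen is found mainly in the meninges and around larger vessels. In culture, astrocytes are known to make some matrix, and meningeal fibroblasts, mural cells and endothelial cells make much more.

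The deposited values are read counts that were scaled by a size factor of each library, called normalized counts here and compared between libraries for 1 gene at a time. Levels of different genes were compared as FPKM, computed from the recovered reads and the gene lengths. The libraries held 18749610 and 22673555 reads on genes in WT, and 20702980 and 22403163 in the KO-labelled ones, and the detection floor was set at 3 reads, which is 2.70 to 3.21 normalized counts. Tet1, counted over the whole gene, was at 266 and 121 normalized counts in WT against 173 and 463 in the KO-labelled libraries, so it was not lower in them, and they are named by their label throughout. Xist, made by the inactive X chromosome, was at 8.54 and 0.920 normalized counts in WT against 2896 and 13367 in the KO-labelled libraries. Eif2s3y, a gene of the Y chromosome, was at 956 and 659 in WT against 0 and 261 in the KO-labelled libraries, so the sex of the pups differed between the labels. KO replicate 2 held both Xist and Eif2s3y, and KO replicate 1 held Xist alone, so the KO-labelled libraries also differed from each other in these genes. The part of sex in differences between the KO-labelled libraries was not tested. Sex and genotype cannot be told apart in these 4 libraries.

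Astrocyte genes were abundant, but not evenly so. The summed FPKM of 10 astrocyte markers was 1678 and 1570 in WT, 2785 in KO replicate 1 and 399 in KO replicate 2. Gfap, the astrocyte filament protein, made up much of this at 687, 765, 1871 and 117 FPKM (WT replicates 1 and 2, then KO replicates 1 and 2). Without it the other markers summed to 990 and 805 FPKM in WT against 914 and 282 in the KO-labelled libraries. Of the 10 markers, 5 were lower in both KO-labelled libraries than in either WT library, where 25.4% of all genes tested were. Slc1a3, Slc1a2 and Sox9 were among them. Gja1 was the 1 marker higher in both, where 22.5% of all genes tested were. It was at 17.3 and 24.5 FPKM in WT against 32.4 and 30.6 in the KO-labelled libraries. Other cells that make collagen were looked for by their markers. The 9 markers of meningeal and other fibroblasts summed to 311 and 177 FPKM in WT against 134 and 33.9 in the KO-labelled libraries, and most of this was Islr and Ogn. Twist1 was at 3.31, 3.63, 4.72 and 4.47 FPKM in the same order of libraries. Foxc1 was at 3.25, 1.81, 1.98 and 3.33, and Pdgfra at 0.814, 2.77, 0.371 and 0.900. Dcn, Lum, Aldh1a2 and Slc6a13 were at most 0.355 FPKM in any library. The 7 mural cell markers summed to 83.5 and 276 FPKM in WT against 593 and 1417 in the KO-labelled libraries, most of it Acta2, smooth muscle actin, at 55.6, 239.8, 564 and 1396 FPKM in that order, while the pericyte genes Rgs5, Kcnj8 and Vtn were at most 0.475 FPKM. Acta2 was the 1 mural marker that ran in this order. Pdgfrb, a receptor of mural cells and fibroblasts, was at 19.2, 19.6, 18.5 and 9.03 FPKM and Notch3 at 5.13, 10.1, 6.82 and 7.42, and without Acta2 the mural markers summed to 27.9, 36.7, 29.2 and 21.3 FPKM. The 5 endothelial markers measured summed to 0.551 to 1.45 FPKM, the 5 Schwann cell markers to 3.27 to 3.75, and the 8 microglia markers to 18.1 and 34.9 FPKM in WT against 2.35 and 1.19 in the KO-labelled libraries. In bulk samples, fewer cells of a type and less RNA per cell cannot be told apart, and the part of these cells in the collagen values below was not tested.

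Collagen expression was carried by a small number of chains. Of the 42 genes, 23 had a mean of at least 1 FPKM over the 4 libraries, and the 10 highest made up 86.1% of the summed FPKM of all chains. Col5a2, a fibrillar chain of type V collagen, had the highest mean and held 14.2% of the mean over the 4 libraries. Its share was 9.38% and 11.1% in WT against 12.9% and 19.6% in the KO-labelled libraries, and it was the highest chain in KO replicate 2 only, with Col4a5 above it in each other library at 12.9%, 12.3% and 17.1%. Col4a1 and Col4a5, chains of the type IV network, followed with 13.3% and 12.8%, then Col18a1, which releases endostatin, with 9.63%. Col12a1, a fibril-associated chain, held 8.70%, and Col4a6 and Col4a2 held 7.59% and 6.11%. Chains of type I and type III collagen, which make up much of skin and of the meninges, were low, with 1.04% for Col1a2, 0.854% for Col1a1 and 0.139% for Col3a1. The 42 genes lie on 15 chromosomes, and 26 of them overlap another annotated gene, 16 of these on the opposite strand. At the low end, Col28a1 had no more than 1 read in any library and was not tested, and the other 41 chains passed the mean of 1 normalized count that the test required.

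**Figure D1:**
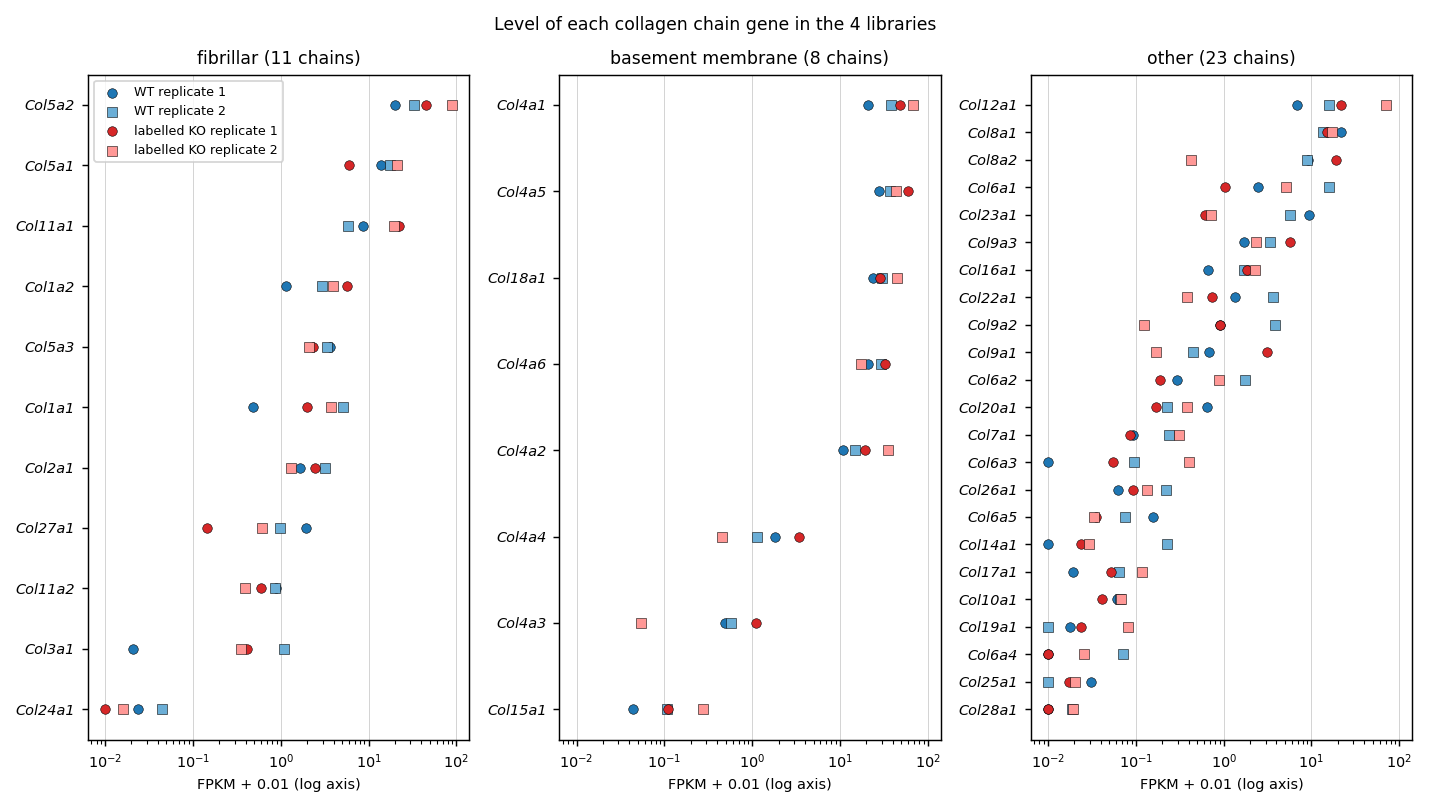
Level of each of the 42 collagen chain genes as FPKM + 0.01 on a log axis, 1 point per library, in the fibrillar, basement membrane and other groups. Col5a2, Col4a1 and Col12a1 have both KO-labelled libraries to the right of both WT libraries, and Col23a1 has them to the left. Col8a2 and Col4a3 have KO replicate 2 far below the other libraries.

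The summed level of all chains was 215 and 301 FPKM in WT, and 351 and 454 FPKM in the KO-labelled libraries. Each KO-labelled library was above each WT library, and the mean was 1.56-fold higher (258 ± 61.0 against 403 ± 73.0, SD, n = 2 each). The exact two-sided permutation test of 2 libraries against 2 cannot give less than p = 0.333, so this value alone could not pass a threshold of 0.05. Fibrillar chains summed to 52.4 and 74.0 FPKM in WT against 87.4 and 142 in the KO-labelled libraries. Basement membrane chains summed to 107 and 151 in WT against 193 and 211 in the KO-labelled libraries. The other chains summed to 55.8 and 75.6 in WT against 70.5 and 101 in the KO-labelled libraries, and here the labels overlapped. All chains together made up 0.0754% to 0.157% of the summed FPKM of all listed genes.

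**Figure D2:**
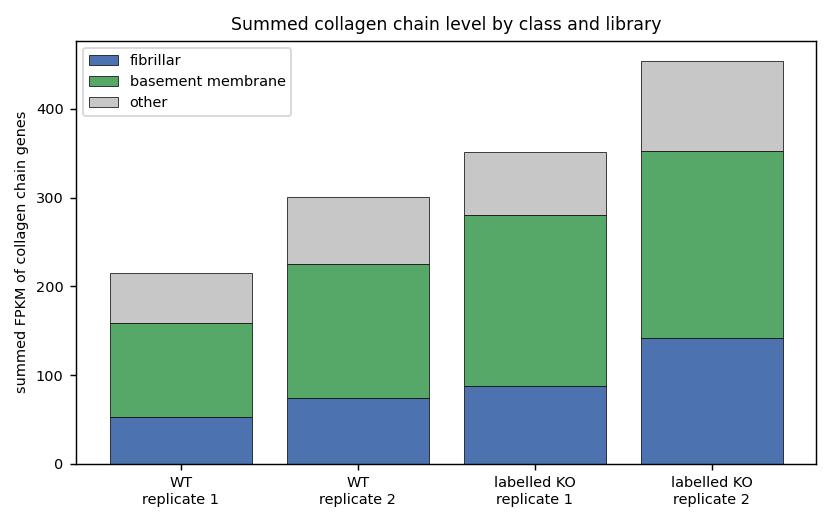
Summed FPKM of the collagen chain genes in each library, stacked by group (bars start at 0). The whole bar goes from 215 in WT replicate 1 to 454 in labelled KO replicate 2, and the basement membrane group is the largest part of each bar.

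Differences between the labels were tested gene by gene with limma on log2(normalized count + 1), a log scale on which changes of low genes come out too small, for the 22094 genes whose mean reached 1. No chain had an adjusted p under 0.05, as was the case for 0% of all genes tested, and the smallest adjusted p of a chain was 0.101. With edgeR on the recovered reads the adjusted count was also 0, with 7 chains at an unadjusted p under 0.05, where 2733 of all genes (12.4%) were. At an unadjusted p under 0.05 in limma, 6 of the 41 chains were higher in the KO-labelled libraries, where 4.54% of all genes were, and 3 were lower, where 9.18% of all genes were. With WT replicate 1 left out 2 chains were higher, and over all genes the number higher fell from 1004 to 273. With WT replicate 2 left out 1 chain was lower, where all genes went from 2028 to 897, and with KO replicate 1 left out 5 were lower, where all genes went to 3026. DESeq2 called 1 chain higher at an adjusted p under 0.05, where 1.29% of all genes were called, and 2 lower, where 3.63% were. Both KO-labelled libraries were above both WT libraries for 10 chains, against 22.5% of all genes, and below both for 7 chains, against 25.4% of all genes. The remaining 24 tested chains overlapped between the labels, and the median log2 fold change was -0.01 over the 41 chains and -0.07 over all genes tested.

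**Figure D3:**
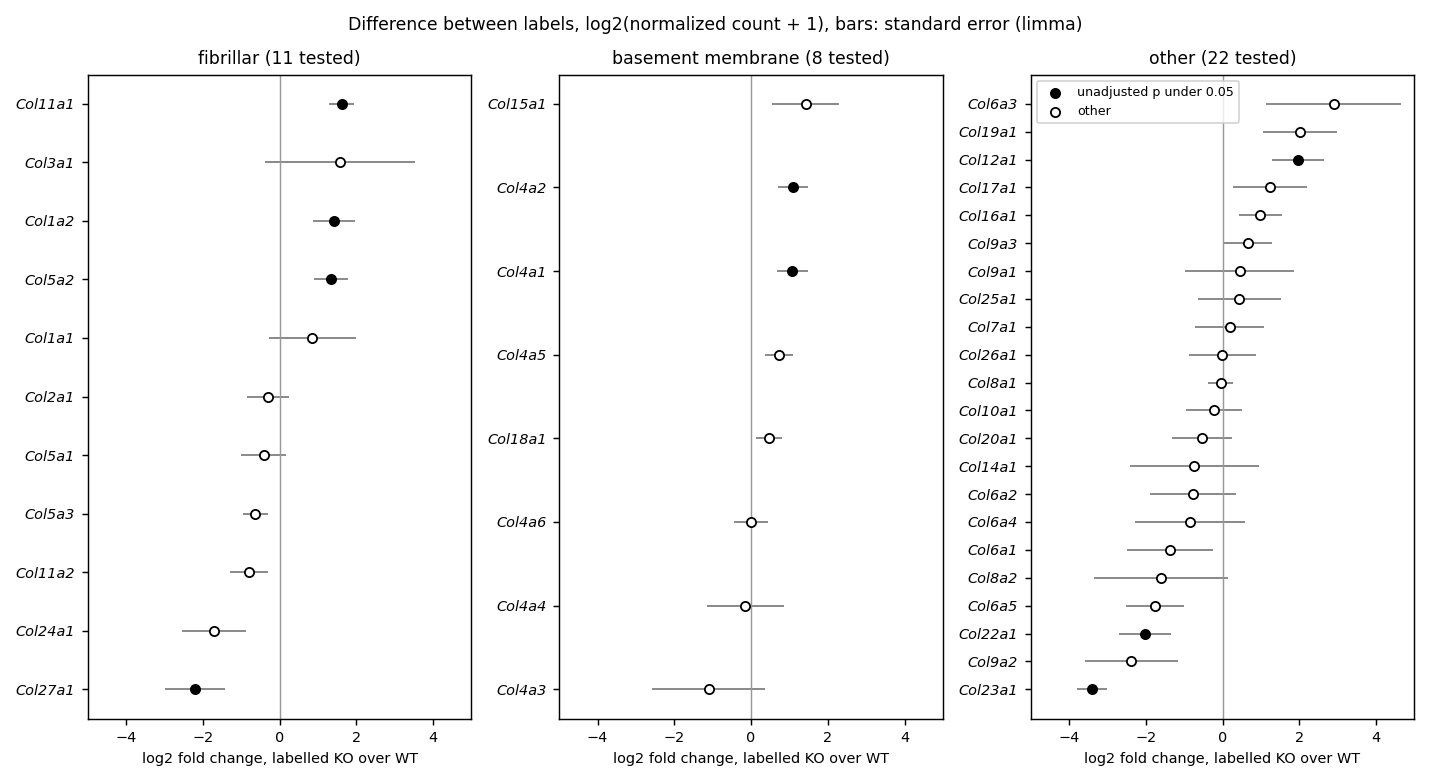
Log2 fold change of the 41 tested collagen chain genes, labelled KO over WT, with its standard error from limma. Filled points are the 9 chains with an unadjusted p under 0.05, from Col23a1 at -3.40 to Col12a1 at 1.97, and no chain had an adjusted p under 0.05.

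In the fibrillar group, 3 of 11 chains (27.3%) were higher at an unadjusted p under 0.05 in limma, where 4.54% of all genes were. A further 1 (9.09%) was lower, where 9.18% of all genes were. The median log2 fold change of the group was -0.30, and it was 0.28 over the chains with a mean of at least 10 normalized counts. It was also above 0 without WT replicate 2 (0.19), without KO replicate 1 (0.43) and without KO replicate 2 (0.23), so it gives the group no direction. Col11a1, a chain of type XI collagen that sets the width of cartilage fibrils, had 2193 and 1531 normalized counts in WT against 6348 and 4963 in the KO-labelled libraries. The KO-labelled libraries were close to each other here and stood well above WT. The mean was 3.04-fold higher (log2 fold change 1.61, SE 0.33, limma unadjusted p of 0.00358, adjusted p = 0.182), and in DESeq2 the adjusted p was 0.0112. Without WT replicate 2 the unadjusted limma p of Col11a1 was 0.0543. Col11a2, its partner chain, was at 119.5 and 121 normalized counts in WT against 88.8 and 53.2 in the KO-labelled libraries (log2 fold change -0.80, adjusted p = 0.521 in limma). As FPKM, Col11a1 exceeded Col11a2 by 9.84 and 6.76 times in WT, and by 38.3 and 50.02 times in the KO-labelled libraries.

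The 250 bases upstream of Col11a1 and of Col23a1, the chains with the smallest p in each direction, are shown side by side because no other gene overlaps either of them. Capitals mark GGGCGG (the GC box), CCAAT (the CCAAT box), TATAAA (the TATA box) and TGANTCA (the AP-1 site), each searched on both strands. None of these motifs contains another. The Col11a1 stretch is chr3:114030290-114030539, plus strand, and the Col23a1 stretch is chr11:51289670-51289919, plus strand, both from RefSeq on GRCm38.p6 and read 5′ to 3′.
Col11a1: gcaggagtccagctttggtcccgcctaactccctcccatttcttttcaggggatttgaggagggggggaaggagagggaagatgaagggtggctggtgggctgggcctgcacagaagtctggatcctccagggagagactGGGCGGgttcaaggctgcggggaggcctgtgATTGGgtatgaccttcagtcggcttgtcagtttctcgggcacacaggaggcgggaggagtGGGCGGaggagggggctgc
Col23a1: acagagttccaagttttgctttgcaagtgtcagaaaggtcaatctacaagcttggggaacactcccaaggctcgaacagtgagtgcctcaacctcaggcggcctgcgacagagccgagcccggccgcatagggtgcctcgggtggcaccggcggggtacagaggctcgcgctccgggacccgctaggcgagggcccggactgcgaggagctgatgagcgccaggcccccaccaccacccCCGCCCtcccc
The first holds 2 GC boxes and 1 CCAAT box read from the opposite strand, and the second holds 1 GC box, also on the opposite strand. Neither holds a TATA box or an AP-1 site in these letters. Such windows were on hand for 33 of the 42 chain genes, and 20 of them (60.6%) hold a GC box, against 35.4% of the windows of 27025 genes and 45.8% of those of protein-coding genes. A CCAAT box is in 39.4% of the chain genes' windows and 37.5% of all, a TATA box in 12.1% and 14.3%, and an AP-1 site in 3.03% and 7.82%. A match is a description of the letters and no evidence of binding.

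Col5a2, the chain with the highest mean FPKM (chr1:45374321-45503282, minus strand, mm10), had 3864 and 6662 normalized counts in WT against 9646 and 17251 in the KO-labelled libraries. The labels did not overlap, though the KO-labelled libraries differed from each other by more than the gap between the labels. The mean was 2.56-fold higher (log2 fold change 1.35, SE 0.45, limma unadjusted p of 0.0274, adjusted p = 0.314). Its unadjusted limma p was 0.233 without WT replicate 1, 0.082 without WT replicate 2 and 0.146 without KO replicate 2. Its partner chains in type V collagen went otherwise, with Col5a1 at 2357, 3073, 1118 and 3638 normalized counts (WT replicates 1 and 2, then KO replicates 1 and 2) and Col5a3 at 498, 481, 347 and 288. As FPKM, Col5a2 exceeded Col5a1 by 1.45 and 1.92 times in WT and by 7.64 and 4.20 times in the KO-labelled libraries. Type I collagen joins Col1a1 and Col1a2 in 1 molecule, and the genes were at different levels in the same library. Col1a2 had 283 and 764 normalized counts in WT against 1568 and 987 in the KO-labelled libraries (log2 fold change 1.42, SE 0.56, limma unadjusted p of 0.0482, adjusted p = 0.362), and its unadjusted p was 0.261 without WT replicate 1, 0.268 without KO replicate 1 and 0.117 without KO replicate 2. Col1a1 had 61.9 and 699.8 in WT against 291 and 489 in the KO-labelled libraries, so the labels overlapped and WT replicate 1 alone was low. Col3a1, which forms fibrils with type I collagen, was at 2.13 normalized counts in WT replicate 1, below the floor, and at 222, 87.8 and 68.5 in the other libraries.

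Col27a1, a fibrillar chain of developing cartilage, was lower in the KO-labelled libraries. It had 508 and 263 normalized counts in WT against 38.5 and 159 in the KO-labelled libraries (log2 fold change -2.21, SE 0.77, limma unadjusted p of 0.0327, adjusted p = 0.332). KO replicate 1 was lowest, and KO replicate 2 was still below both WT libraries. The unadjusted limma p was 0.276 without WT replicate 1, 0.137 without WT replicate 2 and 0.13 without KO replicate 1. Col2a1, the main fibrillar chain of cartilage, overlapped between the labels at 306, 606, 506 and 242 normalized counts. Col24a1 was at most 5.52 normalized counts in any library.

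In the basement membrane group, 2 of 8 chains (25%) were higher at an unadjusted p under 0.05 in limma, where 4.54% of all genes were. None was lower, where 9.18% of all genes were, and the median log2 fold change was 0.60. Col4a1 and Col4a2 together make the common type IV network of vessels. Col4a1 had 3122 and 5933 normalized counts in WT against 8017 and 10294 in the KO-labelled libraries, 2.02-fold higher in the mean (log2 fold change 1.08, SE 0.41, limma unadjusted p of 0.043, adjusted p = 0.356). Col4a2 had 1450 and 2044 in WT against 2836 and 4754 in the KO-labelled libraries, 2.17-fold higher in the mean (log2 fold change 1.09, SE 0.38, limma unadjusted p of 0.0321, adjusted p = 0.329). Both chains were lowest in WT replicate 1 and highest in KO replicate 2, with the same order between. Without WT replicate 1 the unadjusted limma p was 0.255 for Col4a1 and 0.222 for Col4a2, and without KO replicate 2 it was 0.194 and 0.117. It was 0.109 for Col4a1 without KO replicate 1, and 0.101 for Col4a2 without WT replicate 2. As FPKM, Col4a1 exceeded Col4a2 by 1.91 to 2.57 times, the narrowest range of the 9 pairs of partner chains compared. The genes lie head to head on chromosome 8 and overlap by 22 bases at their starts, and with no strand stated for the counting, reads on that overlap could go to either gene. Of the 7 mural markers, Acta2 alone ran in the same order over the libraries, and the part of mural cells in these values was not tested.

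The other type IV chains form the networks of kidney, lung, eye and smooth muscle basement membranes. Col4a5 had 3718 and 5195 normalized counts in WT against 8948 and 5958 in the KO-labelled libraries, so the labels did not overlap, but its p was 0.0924 (log2 fold change 0.73, 95% interval -0.17 to 1.63, adjusted p = 0.44 in limma). Col4a6 had 3311, 4903, 5727 and 2826 normalized counts, with the KO replicates at both ends (95% interval of the log2 fold change -1.12 to 1.12, adjusted p = 0.999 in limma). Both genes are on the X chromosome, where Xist separated the labels. Col4a4 had 379.8, 252, 808 and 95.5 normalized counts, and Col4a3 had 95.0, 116, 239.8 and 9.01. For Col4a3, Col4a4 and Col4a6 alike, KO replicate 1 was the highest library and KO replicate 2 the lowest. The same held for Col8a2 and Col9a1, which are not type IV chains. Of the 10 astrocyte markers, 9 were lowest in KO replicate 2, and 4, Gfap among them, were also highest in KO replicate 1. Their part in these values was not tested.

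Type IV chain genes sit in head to head pairs. Col4a4 and Col4a3 are 71 bases apart on chromosome 1, and Col4a6 and Col4a5 are 1308 bases apart on the X chromosome. The whole stretch between the starts of Col4a4 and Col4a3, and the 250 bases upstream of Col4a6, are shown because Col4a4, Col4a3 and Col4a6 shared their highest and lowest library. The first is chr1:82586850-82586920, plus strand, which runs from Col4a4 to Col4a3, and the second is chrX:141474077-141474326, minus strand, both on GRCm38.p6.
Col4a4-Col4a3: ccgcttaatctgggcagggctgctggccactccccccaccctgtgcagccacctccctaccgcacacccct
Col4a6: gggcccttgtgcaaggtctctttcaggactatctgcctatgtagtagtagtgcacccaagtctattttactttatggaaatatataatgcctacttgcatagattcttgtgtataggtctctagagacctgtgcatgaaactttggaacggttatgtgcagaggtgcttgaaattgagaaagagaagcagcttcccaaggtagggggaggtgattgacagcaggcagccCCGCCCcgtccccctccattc
Capitals mark the same motifs as above. The stretch between Col4a4 and Col4a3 holds none of the 4, and the Col4a6 stretch holds 1 GC box on the opposite strand. The Col4a4 and Col4a3 levels differed although they share this stretch, since as FPKM Col4a4 exceeded Col4a3 by 2.04 to 3.76 times in the 2 WT libraries and KO replicate 1 and by 9.96 times in KO replicate 2, where Col4a3 had 9.01 normalized counts. Col4a5 exceeded Col4a6 by 1.26 to 2.50 times.

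The multiplexins completed the basement membrane group. Col18a1 had 3361 and 4404 normalized counts in WT against 4386 and 6379.5 in the KO-labelled libraries, and the labels overlapped (log2 fold change 0.46, adjusted p = 0.592 in limma). Col18a1 overlaps Slc19a1, a protein-coding gene on the opposite strand. Col15a1, which anchors basement membranes in muscle and vessels, was low at 4.27 and 12.9 normalized counts in WT against 13.9 and 34.2 in the KO-labelled libraries.

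In the other group, 1 of the 22 chains tested (4.55%) was higher at an unadjusted p under 0.05 in limma and 2 (9.09%) were lower. These shares are close to those of all genes, 4.54% and 9.18%. The median log2 fold change was -0.14, which became 0.12 under quantile normalization. Col12a1, which coats the surface of type I fibrils (chr9:79598991-79718831, minus strand, mm10), had 2068 and 5048 normalized counts in WT against 7362 and 21639 in the KO-labelled libraries. The mean was 4.08-fold higher, and KO replicate 2 carried much of it (log2 fold change 1.97, SE 0.67, limma unadjusted p of 0.0302, adjusted p = 0.32). Without KO replicate 2 the log2 fold change was 1.19, with an unadjusted p of 0.197 in limma, and the p was 0.274 without WT replicate 1 and 0.0872 without WT replicate 2. The order of the 4 libraries was the same for Col12a1 and for Acta2, but for none of the other 6 mural markers. The endothelial marker Cdh5 had this order too, as did Col4a1, Col4a2 and Col5a2. The part of mural or endothelial cells in the Col12a1 values was not tested. An antisense gene overlaps Col12a1, and reads of the pair cannot be told apart without strand.

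Col23a1, a transmembrane collagen that can be shed from the cell surface (chr11:51289920-51583918, plus strand, mm10), had the largest difference of any chain with a mean of at least 10 normalized counts. It had 1074 and 676 normalized counts in WT against 77.1 and 82.9 in the KO-labelled libraries. Replicates of each label were close together, and the gap between the labels was wider than the spread within either. The mean was 10.9-fold lower in the KO-labelled libraries (log2 fold change -3.40, SE 0.40, limma unadjusted p of 0.000239, adjusted p = 0.101). The adjusted p was 0.117 in edgeR and 1.79e-09 in DESeq2. Of the 9 chains with an unadjusted p under 0.05 it was the 1 whose limma p stayed under 0.05 with any 1 library left out, between 0.00510 and 0.0145. Of the 8 microglia markers, 6 were also lower at an unadjusted p under 0.05 in limma, where 9.18% of all genes were. So were 2 of 10 astrocyte, 1 of 9 fibroblast, 1 of 7 mural and 1 of 5 Schwann cell markers. None of the 5 endothelial markers was lower at that threshold, and 1 mural marker was higher. The part of any of these cells in the Col23a1 values was not tested. The other transmembrane chains, Col17a1 of skin hemidesmosomes and Col25a1 of neurons, were at most 12.6 normalized counts in any library.

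Col22a1, a fibril-associated chain known from tissue junctions such as that of muscle and tendon, had 243 and 704 normalized counts in WT against 147 and 69.4 in the KO-labelled libraries. Its mean was 4.39-fold lower (log2 fold change -2.03, SE 0.67, limma unadjusted p of 0.0267, adjusted p = 0.313), and the adjusted p in DESeq2 was 0.0459. The WT replicates differed by 2.90 times, and the unadjusted limma p was 0.226 without WT replicate 2, 0.0648 without KO replicate 1 and 0.181 without KO replicate 2. An antisense gene overlaps Col22a1 as well. Type IX collagen, which decorates cartilage fibrils and joins Col9a1, Col9a2 and Col9a3, showed no common order. Col9a1 was at 68.3, 46.0, 353 and 16.2 normalized counts, Col9a2 at 55.5, 246, 62.1 and 7.21, and Col9a3 at 129, 267, 482 and 179 (WT replicates 1 and 2, then KO replicates 1 and 2). Col9a1 and Col9a2 were both lowest in KO replicate 2.

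Type VI collagen forms beaded filaments around cells, from Col6a1, Col6a2 and a larger partner. Col6a1 had 214 and 1444 normalized counts in WT against 101 and 457 in the KO-labelled libraries, and Col6a2 had 48.0 and 302 in WT against 33.2 and 149 in the KO-labelled libraries. The labels overlapped for both, replicate 2 was the higher of each label, and Col6a1 exceeded Col6a2 by 5.76 to 9.10 times as FPKM in the 4 libraries. The third chain, Col6a3, was at 0, 21.1, 11.8 and 94.6 normalized counts, and Col6a5 and Col6a4 were at most 27.7 in any library. Type VIII collagen forms a hexagonal net from Col8a1 and Col8a2. Col8a1 overlapped, at 3386 and 2197 normalized counts in WT against 2583 and 2684 in the KO-labelled libraries (log2 fold change -0.05, 95% interval -0.87 to 0.77). Col8a2 was at 818 and 839 in WT against 1917 and 37.9 in the KO-labelled libraries, a 50.6-fold gap between replicates of a label. As FPKM the ratio of Col8a1 to Col8a2 was 2.37 and 1.501 in WT, 0.772 in KO replicate 1 and 40.6 in KO replicate 2. Of the remaining fibril-associated chains, Col16a1 was at 88.6, 239, 273 and 306 normalized counts, and Col20a1, Col14a1 and Col19a1 were at most 65.1 in any library. Col7a1, which forms the anchoring fibrils of skin, was at 17.1 and 48.7 normalized counts in WT against 17.1 and 63.1 in the KO-labelled libraries, and Col26a1 was at 8.54, 35.9, 15.0 and 20.7. Col10a1, of growth plate cartilage, was at most 3.68 in any library.

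Replicates of a label differed widely for many chains. Of the 34 chains with a mean of at least 10 normalized counts, 16 (47.1%) differed by more than 2-fold between the WT replicates, against 15.1% of 15982 genes, and 14 of these 16 were higher in WT replicate 2. Between the KO-labelled libraries, 18 (52.9%) differed by more than 2-fold, against 32.6% of those genes, 9 in each direction. WT replicate 1 was the lowest library for 18 of the 41 tested chains, among them Col1a1, Col1a2, Col3a1, Col4a1, Col4a2, Col5a2 and Col12a1. Col6a4, counted among these, was also at 0 in KO replicate 1. WT replicate 2 was the highest for 13, including Col1a1, Col3a1, Col6a1 and Col6a2. KO replicate 2 was the lowest for 11 and the highest for 12. By FPKM, 4 of the 9 fibroblast markers were highest in WT replicate 2 and 3 in WT replicate 1. By the same measure, 6 of the 7 mural markers were highest in WT replicate 2. Pdgfrb, 1 of these 6, was at 2239.1 normalized counts in WT replicate 2 and 2242.5 in KO replicate 1. The part of fibroblasts and mural cells in these values was not tested.

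The groups also differ in the glycine repeats that the transcripts encode, which the rule for choosing them did not use. Since the groups are defined by how the proteins assemble, this describes the groups and tests nothing. In the coding sequence of 1 GENCODE transcript per gene, glycine codons (GGN) were followed at steps of 3 codons, and at least 3 in a row were taken as a stretch. Fibrillar chains had a longest stretch of 216 to 344 repeats (median 338) and 2 to 5 stretches in all, with Col24a1 at 216 and Col27a1 at 217 the shortest. Type IV chains were broken into 23 to 27 stretches, the longest of them 39 to 66 repeats. Multiplexins had a longest stretch of 30 repeats each. The other chains ranged from 23 to 113, with Col9a1, Col9a2, Col9a3 and Col22a1 at 113, type VI chains at 37 to 87, Col12a1 at 32 and Col23a1 at 43. Chains that were higher in the KO-labelled libraries included long unbroken repeats (Col11a1 at 338, Col5a2 and Col1a2 at 339) and short ones (Col4a1 at 40, Col4a2 at 66, Col12a1 at 32).

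**Figure D4:**
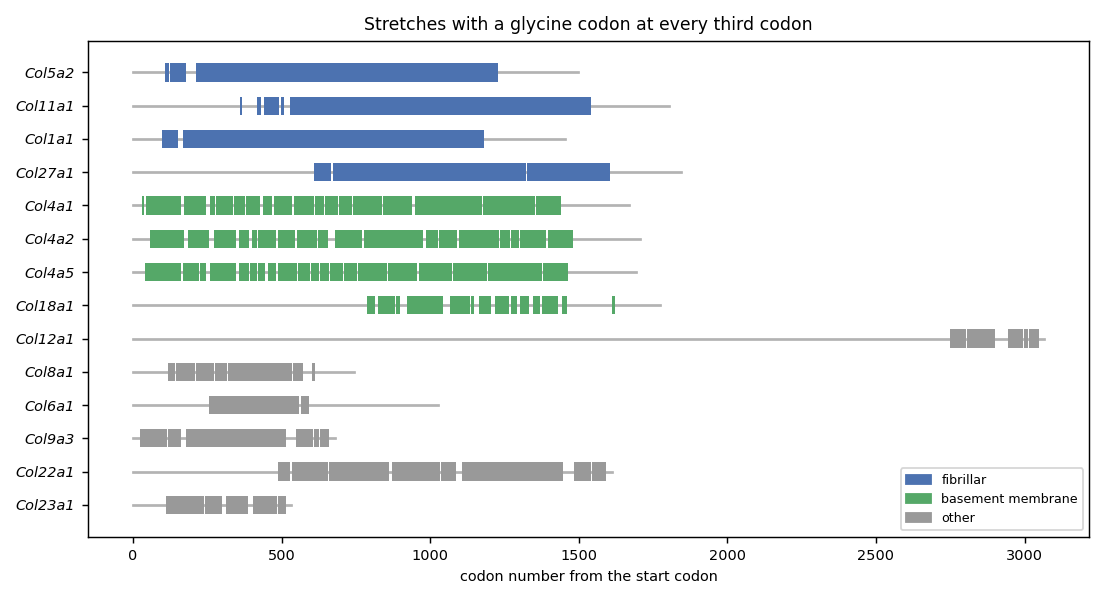
Stretches of at least 3 glycine codons in steps of 3 codons (blocks) along the coding sequence (grey line) of 14 collagen chain genes, with the codon number from the start codon on the horizontal axis. The fibrillar chains Col5a2, Col11a1 and Col1a1 have 1 long block, Col4a1, Col4a2 and Col4a5 have 23 or 24 short ones, and Col12a1 has 5 near the end of a sequence of 3065 codons.

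Enzymes and partners that collagen needs were taken from a list of 57 genes in 6 roles, all of which were tested. At an unadjusted p under 0.05 in limma, 12 (21.1%) were higher in the KO-labelled libraries, where 4.54% of all genes were, and 4 (7.02%) were lower, where 9.18% of all genes were. The median log2 fold change was 0.28 against -0.07 over all genes, and 0 had an adjusted p under 0.05. DESeq2 called 4 of them higher at an adjusted p under 0.05, namely P3h1, Pcolce2, Fn1 and Itgb1, where 1.29% of all genes were. With WT replicate 1 left out 2 were higher and 1 was lower, with WT replicate 2 left out 4 were higher and 0 lower, and with KO replicate 1 left out 7 were lower. Over all genes, 273 were higher and 862 lower in the first of these, 483 and 897 in the second, and 3026 were lower in the third. Of the 15 genes for hydroxylation and glycosylation of the chains, 5 were higher and 1 was lower. P3h1, which hydroxylates prolines at the 3-position, had 421 and 598 normalized counts in WT against 1244 and 2365 in the KO-labelled libraries (log2 fold change 1.77, adjusted p = 0.219 in limma). P4ha2, a catalytic subunit of prolyl 4-hydroxylase, went the other way, from 729 and 379 to 278 and 129 (log2 fold change -1.47, adjusted p = 0.352 in limma). P4hb, the shared subunit of that enzyme and the most abundant of the role, had 4762 and 5983 in WT against 10098 and 15038 in the KO-labelled libraries. The libraries did not overlap between labels for any of these 3 genes. Over all genes tested, 22.5% had both KO-labelled libraries above both WT libraries and 25.4% had them below.

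Of the 8 chaperones and export factors, 2 were higher and 0 lower at that threshold, where 4.54% and 9.18% of all genes were. Serpinh1, the collagen chaperone HSP47, had 6404 and 9879.8 normalized counts in WT against 17060 and 26966 in the KO-labelled libraries (log2 fold change 1.43, adjusted p = 0.264 in limma), so it ran in the same order over the libraries as Col5a2. Of the 8 genes of propeptide cleavage, 2 were higher and 0 lower, where 4.54% and 9.18% of all genes were. Of these 2, Tll2 was near the floor, at 0 and 0 normalized counts in WT against 12.8 and 1.80 in the KO-labelled libraries. Pcolce2, an enhancer of that cleavage, had 61.9 and 32.2 in WT against 278 and 705 in the KO-labelled libraries (log2 fold change 3.28, adjusted p = 0.17 in limma, and 5.47e-05 in DESeq2). Bmp1, the protease itself and the most abundant of the role, had 1566 and 2234 in WT against 4069 and 2849 in the KO-labelled libraries. Of the 5 lysyl oxidases, which cross-link the chains, Loxl1 was the 1 with an unadjusted p under 0.05, at 2245 and 2886 in WT against 5989 and 5487 in the KO-labelled libraries (log2 fold change 1.17, adjusted p = 0.23 in limma). Loxl2 and Loxl3 did not pass that threshold. Both KO-labelled libraries were above both WT libraries for each of them, as was the case for 22.5% of all genes tested. Loxl2 was at 664 and 802 in WT against 1323 and 1013 in the KO-labelled libraries. Loxl3 was at 1119 and 1058 against 1677 and 1168.

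Of the 10 proteins that bind fibrils, 1 was higher and 3 were lower at that threshold, where 4.54% and 9.18% of all genes were. Fn1, fibronectin, on which collagen fibrils are laid down, had 1702 and 6918 normalized counts in WT against 21133 and 70923 in the KO-labelled libraries (log2 fold change 3.496, adjusted p = 0.227 in limma). Thbs2, thrombospondin 2, had 1369 and 2116 in WT against 475 and 754 in the KO-labelled libraries (log2 fold change -1.51, adjusted p = 0.241 in limma), and Dcn and Tnxb, the other lower genes, were at most 45.9 in any library. Sparc, the most abundant binder, overlapped at 792, 1208, 2396 and 1088 FPKM. Of the 11 receptors and uptake genes, Itgb1 alone passed an unadjusted p of 0.05. Itgb1, the beta chain shared by the collagen-binding integrins, had 7411 and 9337 in WT against 26486 and 32006 in the KO-labelled libraries (log2 fold change 1.81, adjusted p = 0.161 in limma, and 0.000952 in DESeq2). Ddr1, a receptor kinase for collagen and the most abundant receptor, overlapped at 16841, 23441, 36673 and 15957 normalized counts.

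**Figure D5:**
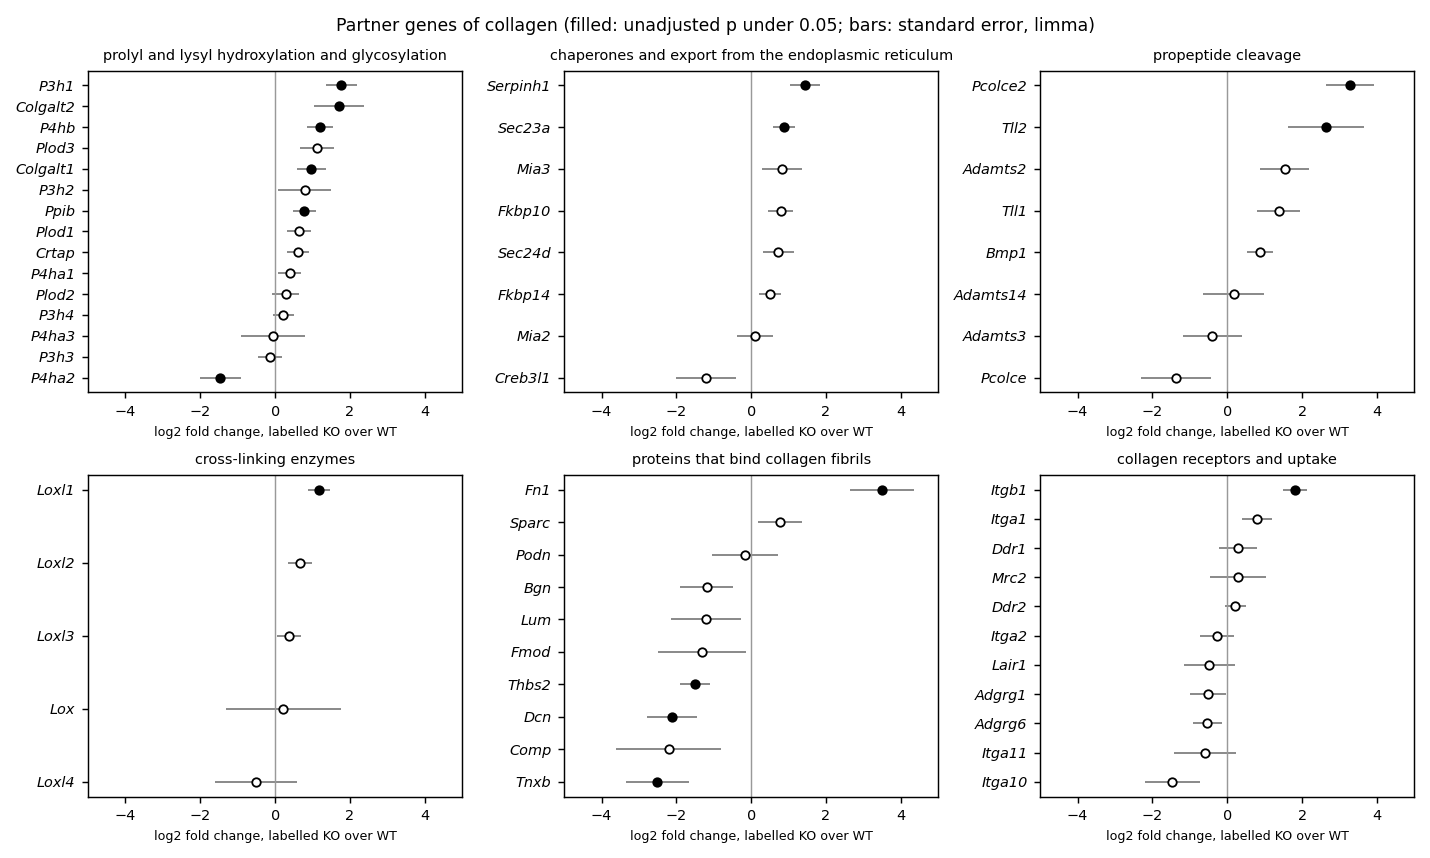
Log2 fold change of the 57 partner genes of collagen, labelled KO over WT, by role, with standard errors from limma. Filled points, 12 to the right of 0 and 4 to the left, have an unadjusted p under 0.05, and Fn1 at 3.496 and Pcolce2 at 3.28 lie farthest to the right.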

How the data were processed

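RNA was measured by RNA-seq in 4 libraries of cultured astrocytes, 2 labelled WT and 2 labelled KO, grouped by the sample labels. Paired-end reads were filtered and then aligned by the authors to mm10, the build that their processing notes name. The aligner, the counting program and the annotation release are not given in the sources used here. The deposited table is titled FPKM, yet each signal value in it is a read count scaled by a size factor of its library and not corrected for length. All values (100%) came out as whole reads within a tolerance of 0.1, so reads were recovered, and FPKM was computed from them, the gene length and the reads on genes. The size factors ranged from 0.934 to 1.11. The design had foreseen limma, with edgeR in its place if the table held whole counts. The table held scaled values, from which whole reads were recovered. Its limma test was kept, with count tests on the recovered reads as alternatives. The authors' own group means, fold changes and p-values were not used, and 0 columns of values stayed without a sample.

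limma 3.58.1 in R 4.3.3 (lmFit, eBayes with a variance trend) was run on log2(normalized count + 1) for genes whose mean reached 1, adjusted over all of them by Benjamini-Hochberg. The alternatives were pseudocounts of 0.1 and 5, no minimum or a mean of at least 10, equal sums, quantile normalization, FPKM with a pseudocount of 0.1, a replicate block, eBayes without a trend, each library left out in turn, edgeR 4.0.16 (quasi-likelihood, TMM) and DESeq2 1.42.0. The scripts were tested on simulated counts. The members and lists were chosen with earlier results of these data known. Values per library are given for the 3 most abundant chains of each group, chains at an unadjusted p under 0.05 with a mean of at least 10, the chains they assemble with and, for partner genes, the smallest p in each direction and the most abundant gene of each role, and for further chains to account for all members. Type groups and the marker and partner lists came from textbook knowledge. Upstream sequences are from RefSeq on GRCm38.p6, and glycine codons were counted in GENCODE M21 transcripts, because protein sequences were not used here. Counts within a label differed beyond counting error (median chi-square per gene 6.48 for the WT pair and 19.7 for the KO pair), so no library was treated as a second deposit of another. This does not show that they came from separate cultures, and replicate numbers follow the labels alone. Tables and plots were made in Python 3.11.15 with pandas 2.3.3, numpy 2.4.6 and matplotlib 3.10.9.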

Additional observations from a re-analysis of the deposited data

How the results depend on the processing

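Of the 9 chains and 15 partner genes at an unadjusted p under 0.05 and a mean of at least 10, each kept its direction under every alternative run. DESeq2 took 3 of these chains (Col11a1, Col22a1, Col23a1) and 4 partner genes to an adjusted p under 0.05, along with 1088 of all genes, and no other alternative did so for a chain or partner gene. With FPKM as the tested value, 2 of all genes had an adjusted p under 0.05. Without a variance trend 1 chain was higher at an unadjusted p under 0.05. Under quantile normalization, in which the all-gene median log2 change was 0.08 in place of -0.07, 1 chain and 1 partner gene were lower. Over the alternatives that left out no library, 1 to 6 chains were higher and 1 to 4 lower at an unadjusted p under 0.05. Of all genes, 762 to 1417 were higher and 1483 to 2163 lower in these alternatives.

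With 1 library left out, 2 to 6 chains were higher and 1 to 5 lower, 2 to 17 partner genes were higher and 0 to 7 lower, and of all genes 273 to 1820 were higher and 862 to 3026 lower, with 0 at an adjusted p under 0.05 throughout. The median log2 fold change then ran from -0.79 to 0.43 for fibrillar chains, from 0.38 to 0.85 for basement membrane chains and from -0.42 to 0.36 for the others. Over chains with a mean of at least 10, the fibrillar median was 0.28. With the replicate block 6 chains were higher and 4 lower, 10 partner genes were higher and 4 lower, and of all genes 762 were higher and 1821 lower. Deviations of same-numbered libraries had a correlation of -0.08 over the genes tested, so the numbers were not taken as a pairing. The cause of these changes was not tested. With 2 libraries per label and 3.40 prior degrees of freedom, a chain needed a wide and even gap to pass, and chains of a few reads, such as Col28a1, Col24a1 and Col25a1, carry counting error too large to order the libraries.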
